A study of Mus musculus with 4 samples.

Results

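The histone H4 genes of the large histone cluster on mouse chromosome 13 were followed across 4 Illumina MouseWG-6 v2.0 BeadChip arrays of murine embryonic fibroblasts (MEFs), gene by gene and probe by probe. Members were selected by gene symbol, Hist1h4a, Hist1h4b, Hist1h4c, Hist1h4d, Hist1h4f, Hist1h4h, Hist1h4i, Hist1h4j, Hist1h4k and Hist1h4m, at a time when their ratios on these arrays were already known, so the ratios below are a description and carry no test. The array held 17 probes for these 10 genes among 45281 probes for 30874 genes. Of the member probes, 12 were detected on at least 1 array (detection p-value below 0.01, the share of negative control probes that were brighter) and 11 on all 4 arrays. After that filter 8 of the 10 members remained among 12616 genes, each gene represented by its brightest probe, and Hist1h4b and Hist1h4c had no detected probe.

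All cells were of a mixed FVB;129 strain background and, per the study's methods, came from mice with loxP-flanked Rb, were held by contact inhibition, released, and exposed to the DNA-damaging agent doxorubicin before RNA was taken. Parental MEFs received the protein-free solution (2 treatments of 1 h, 3 h apart) in place of the cell-permeable recombinase TAT-Cre and medium in place of virus. Rb-deleted MEFs received TAT-Cre on the same schedule and medium in place of virus. WT Rb-HA MEFs received TAT-Cre and a retrovirus carrying HA-tagged wild-type Rb, and ΔCdk Rb-HA MEFs received TAT-Cre and a retrovirus carrying HA-tagged Rb that cannot be phosphorylated by Cdks. Each group was 1 array of 1 RNA sample, so no spread between cultures was measured. Only the parental array had no TAT-Cre, so that exposure and the loss of endogenous Rb cannot be told apart in comparisons with it. Both Rb-HA arrays were also the only retrovirus-infected arrays, so infection and the return of Rb cannot be told apart in any comparison with the parental or Rb-deleted array. The array positions on the chip followed the groups and cannot be told apart from them either.

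As a check of the labels, the Rb1 probe at base 4421 measured 543 in parental MEFs and 160 after Rb deletion, with 181 beside WT Rb-HA and 170 beside ΔCdk Rb-HA. The Rb1 probe at base 4002 measured 108, 56.7, 51.1 and 52.9. All 3 TAT-Cre arrays were thus low at both, and neither probe showed the retroviral Rb of the last 2 arrays. By immunoblot, the study reported both Rb-HA proteins at physiologic levels. These probes therefore set the parental array apart but cannot tell the 3 TAT-Cre arrays from each other. Whether these probes lie inside the deleted part of Rb1 is not given in the sources used here.

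Histone H4 pairs with H3 in the core of the nucleosome, and many gene copies encode it. Most copies are transcribed in S phase, when new DNA is packaged, and their mRNAs end in a conserved stem-loop in place of a poly(A) tail. The retinoblastoma protein Rb restrains E2F-driven genes of S-phase entry, and cyclin E with Cdk2 is known to switch on histone gene transcription through the coactivator NPAT. The labelled RNA was made with a MessageAmp kit, which primes from poly(A) tails. The intensities therefore concern H4 transcripts that such priming could copy, and the polyadenylated share of the H4 mRNA was not measured here.

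The probes needed a look first, since H4 coding sequences resemble each other. A set of 13 of the 17 probes lay in a reading frame shared with a probe of another H4 gene, and 3 held the start codon. The probes of Hist1h4b and Hist1h4f that begin at base 16 of their transcripts are shown because they bear on how far a probe can tell 2 members apart. They matched at 46 of 50 bases, and capitals mark the 4 differences, T27C, T42C, C45T and A48G, counted from 1 at the 5′ end with the Hist1h4b base first.
Hist1h4b: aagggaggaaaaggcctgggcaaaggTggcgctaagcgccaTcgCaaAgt
Hist1h4f: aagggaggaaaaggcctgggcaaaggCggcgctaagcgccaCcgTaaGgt

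In spite of that likeness the Hist1h4b probe stayed at background on all 4 arrays, with intensities of 40.2 in parental, 35.8 in Rb-deleted, 41.9 in WT Rb-HA and 44.7 in ΔCdk Rb-HA MEFs. The Hist1h4f probe was detected on all 4 arrays, at 100.0, 70.6, 124 and 166 in the same order. A difference of 4 bases in 50 therefore went with a probe that was dark on every array beside a probe that was lit on every array.

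The closest pair of detected members was Hist1h4k (probe at base 45) and Hist1h4m (probe at base 42), which shared a run of 47 bases, in capitals, displaced by 3 bases. They are shown because the largest ratios in the family came from this shared stretch.
Hist1h4k: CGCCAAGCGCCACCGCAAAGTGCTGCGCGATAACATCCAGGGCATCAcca
Hist1h4m: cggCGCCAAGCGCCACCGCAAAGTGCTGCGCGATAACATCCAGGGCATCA

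Transcripts of Hist1h4k and Hist1h4m could bind either probe, so their values cannot be assigned to 1 gene. In all, 6 probes of 4 members (Hist1h4b, Hist1h4f, Hist1h4k and Hist1h4m) matched a probe of another gene at 45 or more of 50 bases. The other members had more distinct probes. The best match of the Hist1h4a probe to any other gene's probe on the array was 28 bases and that of the Hist1h4j probe was 27. These 2 probes are printed because they carry the family's pattern and matched no probe of another gene beyond those counts. The closest matches were probes of Usp10 and C1rl. Probes were compared with other probes only, so binding of other H4 transcripts to these 2 was not examined.
Hist1h4a: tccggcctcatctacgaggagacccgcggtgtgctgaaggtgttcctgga
Hist1h4j: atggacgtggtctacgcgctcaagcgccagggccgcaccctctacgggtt

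Probes at the start of the coding sequence show how far the copies have drifted while beginning alike, with the start codon in capitals. The Hist1h4d and Hist1h4f probes, both at base 1, shared 37 of 50 bases. The Hist1h4h probe overlapped that of Hist1h4f only from its start codon on, as printed, and matched it at 27 of these 31 bases.
Hist1h4d: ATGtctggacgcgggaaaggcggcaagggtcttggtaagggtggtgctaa
Hist1h4f: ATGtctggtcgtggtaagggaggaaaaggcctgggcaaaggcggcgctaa
Hist1h4h: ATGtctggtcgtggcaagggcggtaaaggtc

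**Figure D1:**
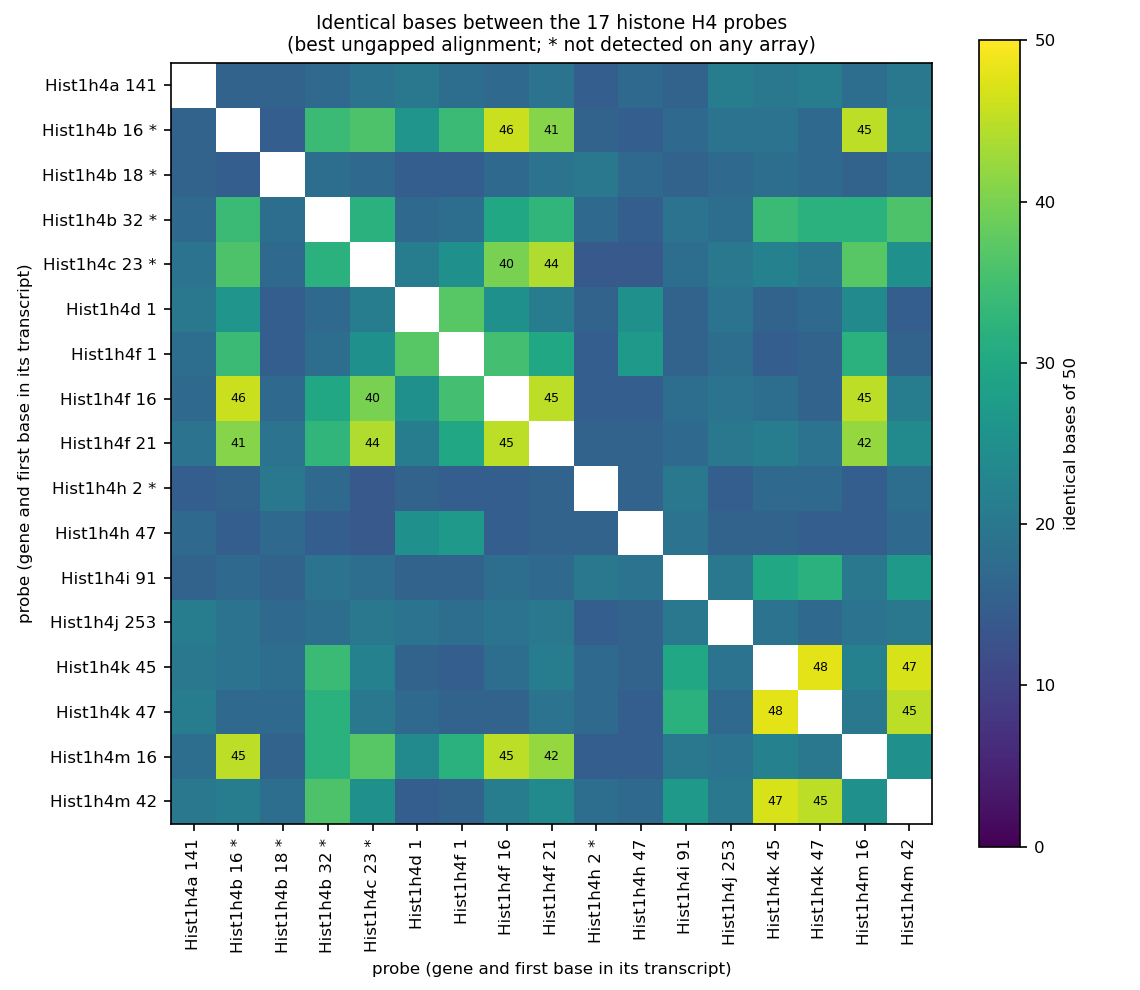
Heat map of the number of identical bases (colour, 0 to 50) between each pair of the 17 H4 probes in their best ungapped alignment, with numbers printed at 40 or more and an asterisk at probes not detected on any array. The Hist1h4b, Hist1h4f and Hist1h4m probes near base 16 form 1 block of alike probes and the Hist1h4k and Hist1h4m probes near base 45 another, while Hist1h4a, Hist1h4h and Hist1h4j stand apart. A count is also low where 2 probes cover different stretches, as with Hist1h4h, whose probe overlaps that of Hist1h4f at base 1 by 31 bases.

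On every analysed member the ΔCdk Rb-HA array was the brightest, the WT Rb-HA array came next, the parental array after it and the Rb-deleted array last. This order held in 8 of 8 genes on the normalized scale, and 4.92% of all 12616 genes had it. Among the detected probes 11 of 12 kept the order, and the exception was a dim Hist1h4f probe. Hist1h4a, one of the copies in the cluster, was bright throughout. It measured 664 in parental, 467 in Rb-deleted, 1033 in WT Rb-HA and 1580 in ΔCdk Rb-HA MEFs (deposited intensity, arbitrary units), with bead standard errors from 10.3 to 44.0. The arrays were separated by many bead standard errors for this probe. Such an error is that of the mean over the beads of 1 probe on 1 array (25 to 67 beads over all member probes). It gives no spread between cultures. For Hist1h4d no step between neighbouring arrays in this order passed 2 bead standard errors. For Hist1h4i the step between the Rb-deleted and parental arrays did not.

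Hist1h4h gave the same picture at intensities of 414, 260, 621 and 1138 in the same order of groups. The second Hist1h4h probe, which begins at base 2 of a transcript that is not from RefSeq, stayed at background at 36.0 to 39.2. Hist1h4j, read near the end of its coding sequence, measured 197, 145, 257 and 412 in the same order of arrays. Hist1h4i measured 208, 196, 334 and 421, so its parental and Rb-deleted values lay close together while both Rb-HA values lay above them.

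Hist1h4f had 3 detected probes. The probe at base 1 measured 324, 254, 528 and 704, again in the order parental, Rb-deleted and the WT and ΔCdk forms of Rb-HA. The dim probe at base 21 measured 57.1, 58.9, 82.4 and 114, and here the Rb-deleted array was not below the parental one. Its neighbour at base 16, given above beside the sequences, was lowest on the Rb-deleted array.

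Hist1h4k measured 167, 102, 226 and 431 at its probe at base 45 and 130, 87.0, 166 and 285 at its probe at base 47. Hist1h4m measured 188, 132, 267 and 353 at the probe at base 16 and 132, 85.5, 220 and 369 at the probe at base 42. All of these probes placed the Rb-deleted array lowest and the ΔCdk Rb-HA array highest. The symbol Hist1h4m needs a remark, since the Entrez ID the array gives it is named H4c18 in current RefSeq, and the RefSeq gene with Hist1h4m as its older name is the one the array calls LOC100041230.

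At the bottom of the range, Hist1h4d measured 59.1, 51.9, 67.6 and 69.6 and was not detected on the Rb-deleted array. Hist1h4c, at 42.3, 46.4, 53.5 and 55.3, reached no detection p below 0.0139 on any array and gives no ratio here. The 3 probes of Hist1h4b lay between 33.4 and 46.0 on all arrays and were not detected. Of the H4 genes outside this cluster, Hist2h4 on chromosome 3 (35.2 to 47.6) and Hist4h4 on chromosome 6 (36.6 to 47.6 over 2 probes) were not detected on any array.

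**Figure D2:**
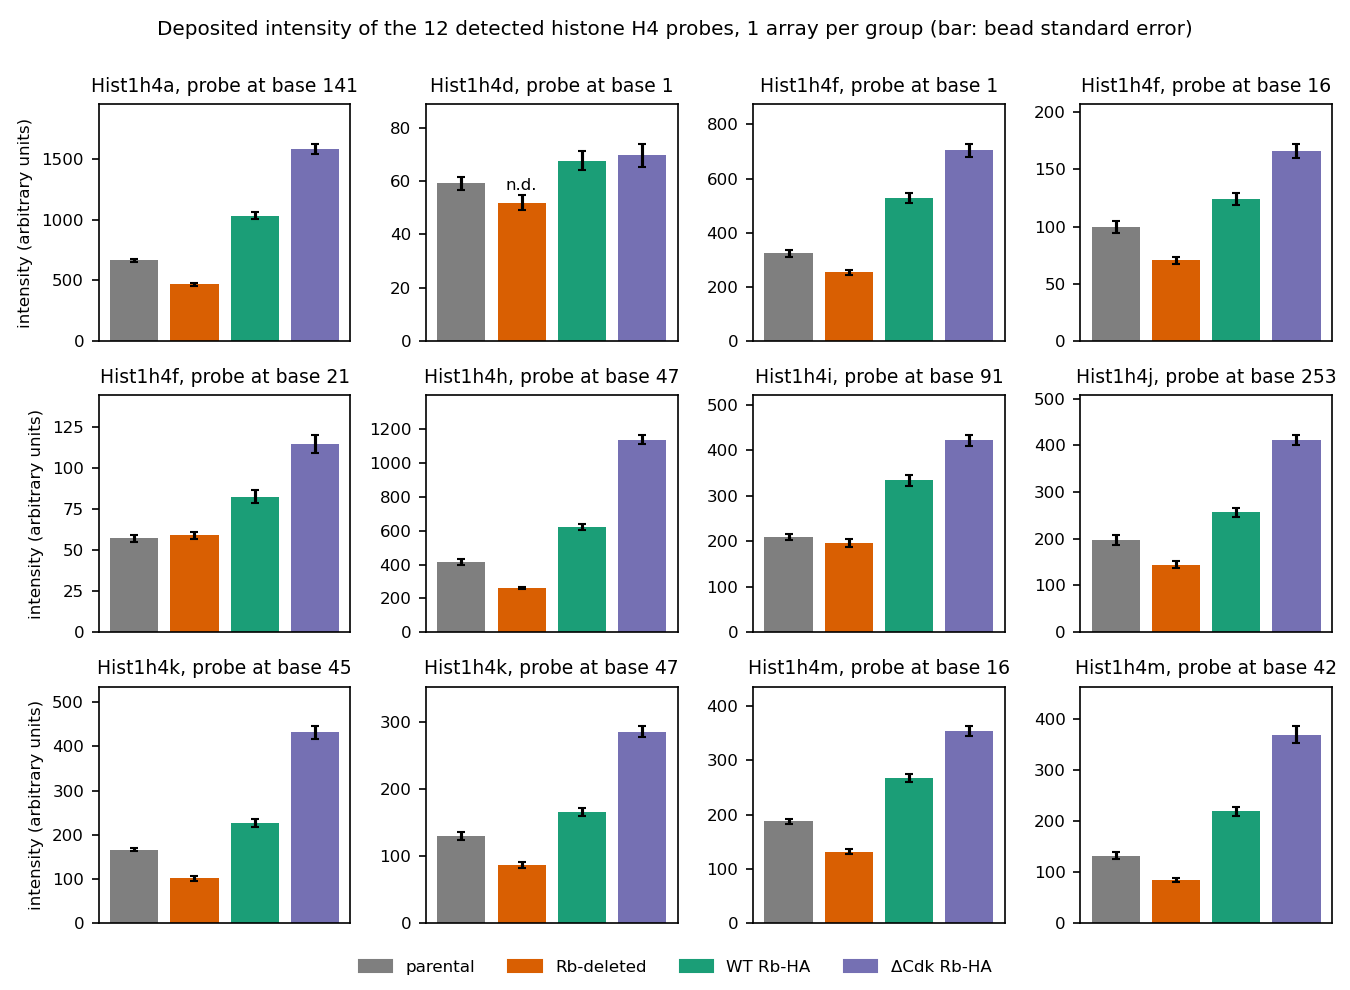
Deposited probe intensity (arbitrary units, linear axis from 0, its own scale in each panel) of the 12 detected H4 probes on the 4 arrays, coloured by group, with bead standard errors and n.d. where the probe was not detected. In 11 panels the Rb-deleted bar is the lowest and in all 12 the ΔCdk Rb-HA bar is the highest.

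Deletion of Rb with TAT-Cre went with lower H4 signal. Against the parental array, the Rb-deleted array was lower for 8 of 8 analysed members, where 47.5% of all genes were below 0, and the difference passed 2 bead standard errors in 6 of them. The median log2 ratio was -0.49 beside 0.02 over all genes. Only Hist1h4k was lower by more than 1.6-fold, the filter the study drew, and 2.98% of all genes were. Its log2 ratio was -0.84 (bead SE 0.11), or 1.79-fold lower. This value comes from the stretch shared with Hist1h4m, and no member was past 1.6-fold once the shared probes were left out. Hist1h4h followed at -0.66 (bead SE 0.07) and Hist1h4m at -0.57 (bead SE 0.08).

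Smaller differences were seen for the other members. Hist1h4a had a log2 ratio of -0.49 (bead SE 0.05), Hist1h4j of -0.48 (bead SE 0.11) and Hist1h4f of -0.33 (bead SE 0.08). Hist1h4i, at -0.06 (bead SE 0.08), and Hist1h4d, at -0.29 (bead SE 0.17), did not differ between the parental and Rb-deleted arrays beyond 2 bead standard errors. With its undetected value set to the dimmest detected value of the Rb-deleted array, Hist1h4d was 1.15-fold lower there, and without background correction its log2 ratio was -0.17. The Hist1h4f probes disagreed in this comparison, with log2 ratios of -0.67 (bead SE 0.14) at base 16 and 0.11 (bead SE 0.12) at base 21.

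With wild-type Rb returned, the H4 signal lay above that of the parental cells. All 8 members had the higher value in WT Rb-HA, as had 51.3% of all genes, and the median log2 ratio was 0.64 beside 0.01 over all genes. A difference of more than 1.6-fold was reached by 3 members, Hist1h4f at 0.81 (bead SE 0.08), Hist1h4i at 0.80 (bead SE 0.07) and Hist1h4a at 0.72 (bead SE 0.05), and by 0.888% of all genes. Hist1h4h lay just under the filter at 0.67 (bead SE 0.07), a fold of 1.59. Hist1h4m, Hist1h4k and Hist1h4j had log2 ratios of 0.61, 0.53 and 0.47. Which members passed depended on the probe: the Hist1h4f probe at base 16 gave 0.40, and with the mean of each gene's detected probes Hist1h4f lay under the filter at 0.67 while Hist1h4m passed it at 0.75. Hist1h4d, at 0.27 (bead SE 0.15), was the member that did not pass 2 bead standard errors.

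The ΔCdk Rb-HA array stood furthest from the parental one. All 8 members were higher, as were 48.9% of all genes, and 7 of 8 were higher by more than 1.6-fold, as were 2.58% of all genes. The median log2 ratio was 1.26 (a fold of 2.40) beside -0.01 over all genes. Hist1h4h led at 1.61 (bead SE 0.07), a fold of 3.06, with Hist1h4k at 1.59 (bead SE 0.07) and Hist1h4a at 1.37 (bead SE 0.05). Hist1h4f, Hist1h4j, Hist1h4i and Hist1h4m followed between 1.28 and 1.07. Hist1h4d was the exception at 0.39 (bead SE 0.17). The 3 sets of ratios above share the parental array, so they are set side by side and not counted as separate evidence.

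**Figure D3:**
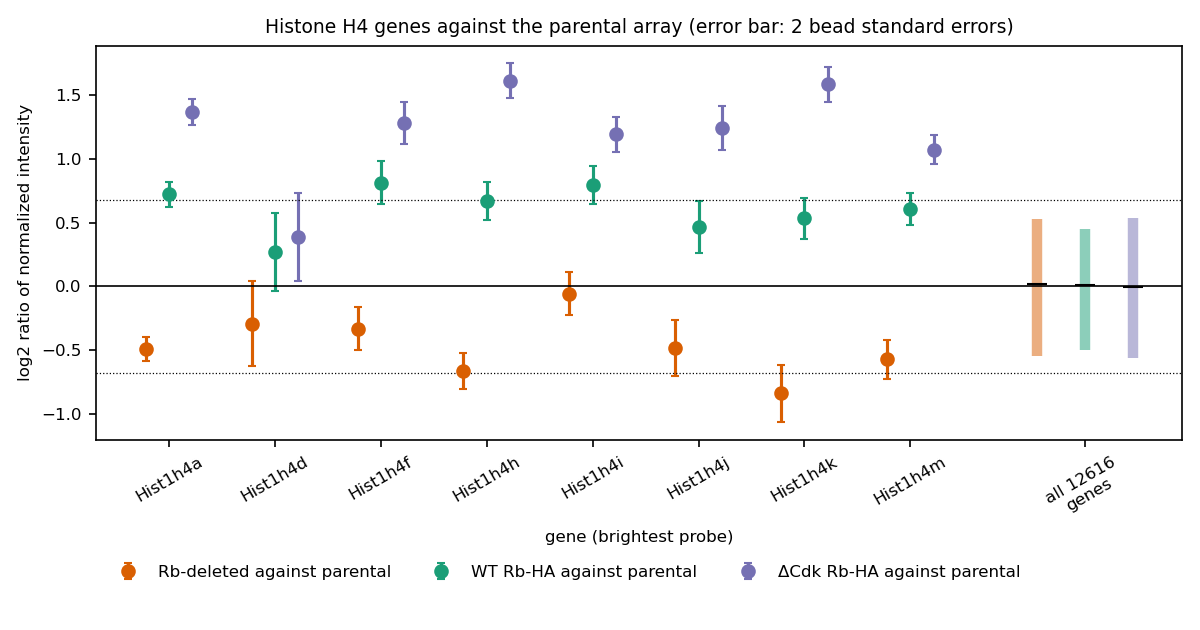
Log2 ratio of normalized intensity against the parental array for each of the 8 analysed H4 genes on the 3 TAT-Cre arrays (points, coloured by group, with 2 bead standard errors), beside the 5th to 95th percentile and median of all 12616 genes (bars at the right); dotted lines mark 1.6-fold. The Rb-deleted points lie below 0 for all 8 genes, and the ΔCdk Rb-HA points lie above 1 for all but Hist1h4d, at 0.39.

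Comparing Rb forms with the Rb-deleted cells put the widest gaps on show. The WT Rb-HA array was above the Rb-deleted array for 8 of 8 members (46.1% of all genes) and by more than 1.6-fold for 7 of 8 (0.539% of all genes), with a median log2 ratio of 1.16 beside -0.02 over all genes. Hist1h4k had the largest ratio, 1.37 (bead SE 0.12), and Hist1h4h the next, 1.33 (bead SE 0.06). Hist1h4a was 2.32-fold brighter with wild-type Rb than without Rb. For Hist1h4d the ratio was 0.56 (bead SE 0.18), or 1.39-fold with the undetected value set as above, and 0.34 without background correction.

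The ΔCdk Rb-HA array was above the Rb-deleted array for 8 of 8 members (45.4% of all genes) and by more than 1.6-fold for 8 of 8 (2.31% of all genes). The median log2 ratio was 1.68, a fold of 3.21, beside -0.03 over all genes. Hist1h4k reached 2.42 (bead SE 0.11), a fold of 5.37, and Hist1h4h 2.27 (bead SE 0.05), a fold of 4.84. The Hist1h4m probe at base 42, which shares its stretch with Hist1h4k and was not the gene's brightest, reached 2.50 (bead SE 0.12). Hist1h4a was 3.63-fold brighter, Hist1h4j 3.31-fold, Hist1h4m 3.13-fold, Hist1h4f 3.06-fold and Hist1h4i 2.38-fold. Hist1h4d was at the edge of the filter with a fitted fold of 1.61, and lay under it at 1.51-fold with the undetected Rb-deleted value set as above. Its log2 ratio was 0.41 without background correction and 0.35 with an offset of 50, so its place past the filter rests on the correction. Both of these comparisons rest on the same Rb-deleted array.

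Between the 2 Rb forms, where both arrays had received virus, ΔCdk Rb-HA gave the higher H4 signal in 8 of 8 members (48.5% of all genes) and passed 2 bead standard errors in 7. A difference of more than 1.6-fold was seen in 3 of 8, as in 0.84% of all genes, and the median log2 ratio was 0.56 beside -0.01 over all genes. The 3 were Hist1h4k at 1.05 (bead SE 0.08), Hist1h4h at 0.94 (bead SE 0.05) and Hist1h4j at 0.78 (bead SE 0.08). Hist1h4a, at 0.65 (bead SE 0.06), lay just under the filter with a fold of 1.57. Hist1h4f, Hist1h4m and Hist1h4i were between 0.47 and 0.39. Hist1h4d had nearly the same intensity on both arrays, with a log2 ratio of 0.12 (bead SE 0.18).

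**Figure D4:**
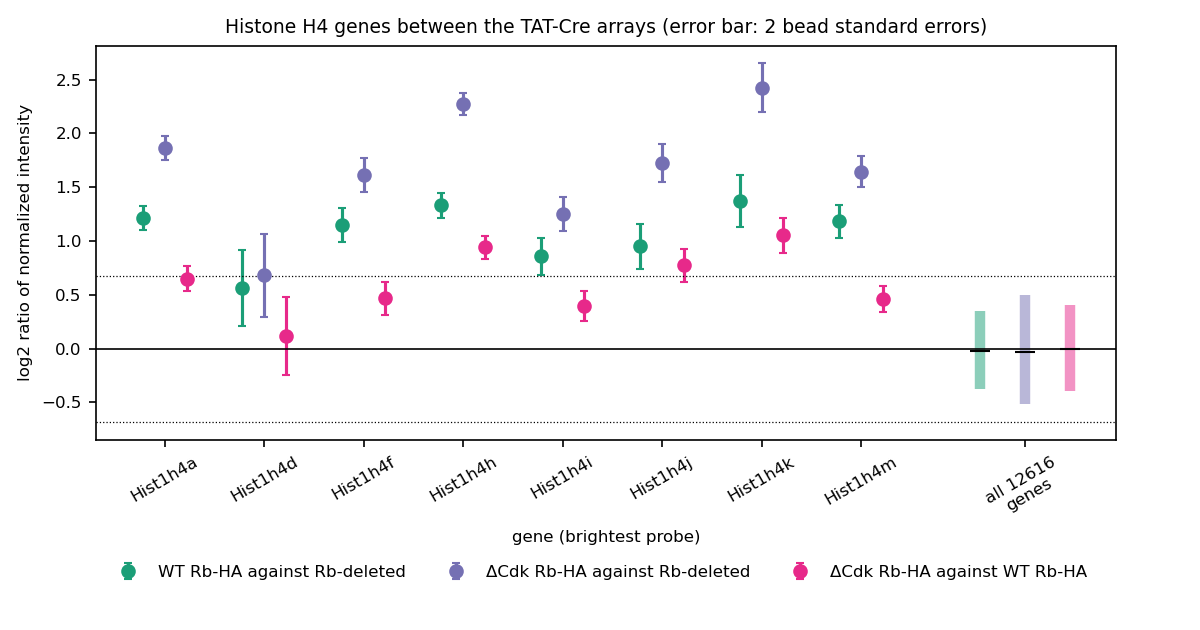
Log2 ratio of normalized intensity for each of the 8 analysed H4 genes in WT Rb-HA against Rb-deleted, ΔCdk Rb-HA against Rb-deleted and ΔCdk Rb-HA against WT Rb-HA (points, with 2 bead standard errors), beside the 5th to 95th percentile and median of all 12616 genes (bars at the right); dotted lines mark 1.6-fold. In ΔCdk Rb-HA against Rb-deleted the genes run from 0.68 for Hist1h4d to 2.42 for Hist1h4k.

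Core histones other than H4 are needed in matched amounts during S phase, and their genes lie in the same clusters. The lists that follow were chosen with earlier results of these arrays known. Among 10 analysed H2B genes, 10 were lower on the Rb-deleted array than on the parental one (47.5% of all genes). Of these, 7 were lower by more than 1.6-fold (2.98% of all genes). The H2B median log2 ratio was -0.77 against -0.49 for H4. On the ΔCdk Rb-HA array 9 of 10 H2B genes were higher than parental (48.9% of all genes), with a median of 0.74 against 1.26 for H4. Hist1h2be had the lowest H2B ratio under Rb deletion at -0.95, and Hist2h2be the highest at -0.23.

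H3 genes moved less on the Rb-deleted array. All 7 analysed H3 genes were below the parental array there (47.5% of all genes), none by more than 1.6-fold. The median was -0.20, from -0.37 for Hist1h3d to -0.02 for Hist1h3a. On the ΔCdk Rb-HA array the H3 median was 0.67, and Hist1h3a led at 1.27. Hist1h1c, the linker histone gene that was detected among 6 on the array, had log2 ratios to parental of -0.59 without Rb, 0.02 with WT Rb-HA and 0.31 with ΔCdk Rb-HA.

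H2A genes were mostly on the other side of 0 from H4 when Rb was deleted. Of 15 analysed H2A genes 11 were above the parental array and 9 by more than 1.6-fold, with a median log2 ratio of 0.78 and Hist1h2ak the highest at 1.21. Hist1h2ac, at -0.60, was lowest. Of all genes 47.5% were below 0 in that comparison, and the share higher by more than 1.6-fold was not counted. The 95th percentile of all genes was a log2 ratio of 0.53, under the 1.6-fold filter. Between ΔCdk Rb-HA and Rb-deleted the H2A median was -0.03 with Hist1h2ab highest at 1.01, while the H4 median was 1.68. How far the H2A, H2B and H3 probes share sequence among themselves was not examined.

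DNA replication genes, the classic E2F targets, were also higher on the Rb-deleted array, in 23 of 23 analysed genes and by more than 1.6-fold in 20. Their median was 1.10, from 0.30 for Pcna, the sliding clamp, to 2.46 for Ung, a uracil-DNA glycosylase. Of all genes 47.5% were below 0 there, and the share higher by more than 1.6-fold was not counted, but their 95th percentile was 0.53. Against the Rb-deleted array, WT Rb-HA was lower for 23 of 23 of the replication genes (median -0.79) and ΔCdk Rb-HA for 16 of 23 (median -0.26). Of all genes 46.1% and 45.4% were above 0 in that order. H4 genes were higher in both of these comparisons, in 8 of 8. On the ΔCdk Rb-HA array against the parental one, both lists were higher, with a median of 1.03 for the replication genes and 1.26 for H4.

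**Figure D5:**
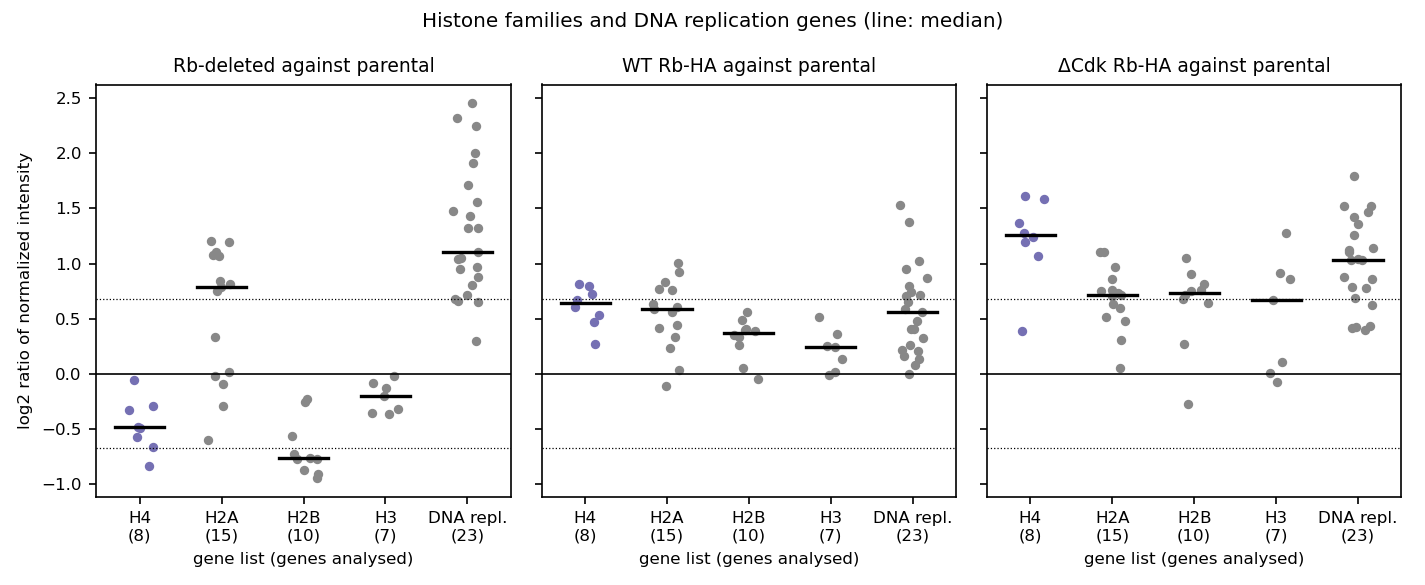
Log2 ratio of normalized intensity against the parental array for the analysed genes of the H4, H2A, H2B and H3 families and of DNA replication (points; horizontal line, median; horizontal position within a list carries no meaning), with 1 panel for each TAT-Cre array; dotted lines mark 1.6-fold. On the Rb-deleted array the H4 and H2B medians are -0.49 and -0.77 while those of H2A and DNA replication are 0.78 and 1.10.

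Regulators of histone genes were measured as well. Of 24 genes on a list of histone transcription and mRNA 3′ processing, 19 were analysed, and 3 passed 1.6-fold upward when Rb was deleted. These were Ccne1 and Ccne2, which encode cyclin E (1.31 and 1.21), and Cdk2, at the edge of the filter (0.68). How many of all genes passed this filter upward without Rb was not counted. Their 95th percentile against parental was a log2 ratio of 0.53, under the filter. With ΔCdk Rb-HA, 2 of the regulators passed 1.6-fold upward against parental, Ccne2 at 1.51 and Ccne1 at 1.13, as did 2.58% of all genes. Npat, the coactivator, had log2 ratios to parental of 0.12 without Rb, -0.07 with WT Rb-HA and -0.07 with ΔCdk Rb-HA. Mizf, the array's name for the H4 promoter factor HiNF-P, had 0.21, 0.30 and 0.18 in that order. Slbp, the stem-loop binding protein of histone mRNA, was not detected at its probe on any array.

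A list of H4 chaperones and histone deposition genes was mostly higher without Rb, in 13 of 15 analysed genes. Of these, 5 were higher by more than 1.6-fold. Of all genes 47.5% were below 0 in that comparison, and the share higher by more than 1.6-fold was not counted. Their 95th percentile was a log2 ratio of 0.53. Chaf1b and Chaf1a, subunits of chromatin assembly factor 1, had log2 ratios of 2.01 and 1.48 on the Rb-deleted array. Nasp, a carrier of soluble H3 and H4, had 1.29, and Hat1, which acetylates new H4, had 0.98. Mcm2, a helicase subunit that also holds H3 and H4, was on this list and on that of DNA replication, at 2.00. Daxx, a chaperone of variant H3, was lowest at -0.34. Against the Rb-deleted array WT Rb-HA was lower for 12 of these 15 and ΔCdk Rb-HA for 12 of 15. Of all genes 46.1% and 45.4% were above 0 in that order. None of 12 enzymes that modify the H4 tail, such as Prmt1 and Kat5, passed 1.6-fold in any of the 6 comparisons.

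Promoters were read from RefSeq (GRCm38.p6), which had an entry for each of the 10 members, over the 250 bases before the annotated start on both strands. The element GGTCCG, the core that HiNF-P is known to bind, occurred in 7 of 10 member promoters and in 6.72% of 32851 promoters. It began 46 or 47 bases before the start in Hist1h4c, Hist1h4d, Hist1h4f, Hist1h4i and Hist1h4m, 32 bases before it in Hist1h4k and 18 bases before it in Hist1h4j. TATAAA occurred in 5 of 10 (12.4% of all promoters) and CCAAT in 3 of 10 (33.8%). The TATAAA positions varied, at -16 from the start in Hist1h4k, -32 in Hist1h4d, -127 in Hist1h4m, -137 in Hist1h4i and -250 in Hist1h4f. A set of E2F forms (TTTGGCGC, TTTCCCGC, TTTCGCGC and TTTGCCGC, none searched with mismatches) occurred in Hist1h4a, at 4 places, and in 1.86% of all promoters. The 150 bases before the start are printed for 4 members, with these elements in capitals on either strand, because Hist1h4k had the widest range across arrays among the brightest probes, Hist1h4a was bright with E2F forms, Hist1h4h was bright with none of the elements, and Hist1h4c was not detected though it held GGTCCG.
Hist1h4k chr13:21750554-21750703 (minus strand): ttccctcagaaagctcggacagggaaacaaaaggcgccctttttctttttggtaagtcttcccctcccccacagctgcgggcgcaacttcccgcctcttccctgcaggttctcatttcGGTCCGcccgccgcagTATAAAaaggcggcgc
Hist1h4a chr13:23761250-23761399 (minus strand): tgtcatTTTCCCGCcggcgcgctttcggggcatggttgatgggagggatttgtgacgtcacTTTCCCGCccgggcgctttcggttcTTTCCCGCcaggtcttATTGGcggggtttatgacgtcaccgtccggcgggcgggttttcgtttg
Hist1h4h chr13:23530894-23531043 (plus strand): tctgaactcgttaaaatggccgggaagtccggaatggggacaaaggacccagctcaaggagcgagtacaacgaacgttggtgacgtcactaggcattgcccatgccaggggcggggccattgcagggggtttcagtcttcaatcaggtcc
Hist1h4c chr13:23698459-23698608 (minus strand): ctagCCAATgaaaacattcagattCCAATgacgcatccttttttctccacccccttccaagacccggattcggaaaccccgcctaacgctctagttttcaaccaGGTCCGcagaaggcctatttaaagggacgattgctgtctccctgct

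These matches are descriptions of the letters and not of binding. The Hist1h4h stretch ends inside aggtcc at the annotated start, so the search window cut it there. Hist1h4a held E2F forms and CCAAT, Hist1h4k held GGTCCG and TATAAA, and Hist1h4h held none of the elements inside the window. These genes had the same order of the 4 arrays, as did every analysed member. Whether any element bears on that order was not tested.

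Mean intensity was 336 to 346 per array and 15950 to 16740 probes were detected on each. The 11 fibroblast markers were all detected, with summed intensities from 77744 to 86352. Of 12 leukocyte markers 10 were detected (Ptprc and Fcer1g were not). Their summed intensities were 10194 on the parental array, 5348 on Rb-deleted, 4900 on WT Rb-HA and 6277 on ΔCdk Rb-HA. All 10 were below parental on Rb-deleted, 7 by more than 1.6-fold (47.5% and 2.98% of all genes). All 10 were below it on WT Rb-HA and 9 on ΔCdk Rb-HA, where Cd53 was higher at 0.39. Of all genes 51.3% and 48.9% were above 0 on these 2 arrays. The part of the leukocyte markers in the H4 differences was not tested. Endothelial markers were not detected (0 of 5), and the summed intensity of the epithelial markers (4 of 7 detected) was 300.2 to 364 and that of the muscle markers (2 of 5) 468 to 570.1. In such bulk RNA, fewer cells making a transcript and less transcript per cell cannot be told apart.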

How the data were processed

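RNA from 4 MEF cultures was hybridised to 1 array each. The deposited file gives, per the file headers, the probe intensity (mean over beads, not normalized), a detection p-value, the number of beads and their standard error. The authors' scanner software and its settings are not given in the sources used here. Intensities were corrected with limma 3.58.1 in R 4.3.3 (normexp with the background taken from the detection p-values, offset 16), quantile normalized and taken as log2, so fold changes of dim probes are understated. Probes with detection p below 0.01 on at least 1 array were kept, and each gene was read from its brightest probe. Bead standard errors were carried through each array's own conversion to log2. The code was tested on simulated data. Probes were aligned to each other without gaps in Python 3.11.15.

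The members and gene lists were chosen with earlier results of these data known. The genes named are all 10 members, Rb1, the extremes of each list, and the 5 genes outside the members and the histone lists that were closest to the H4 medians over the 3 ratios to parental. Further genes of the regulator and chaperone lists were named for their roles after their values were seen. With 1 array per group no test was possible. An undetected value was also set to the dimmest detected one on that array or its own, whichever was higher, on the normalized scale. Of the columns that hold per-sample values 16 were used and 0 left out. Alternatives covered the background correction, offset, scaling, filter, probes per gene, shared probes and fold threshold.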

Additional observations from a re-analysis of the deposited data

How the results depend on the processing

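Each H4 median kept its sign under all 9 settings tried on it (8 planned, and leaving out Hist1h4d, added after seeing the data). The single-gene log2 ratios kept theirs in 270 of 270 values, but many of these could not change. Detection on all 4 arrays and leaving out shared probes kept the same probe for each remaining gene, so the main value was repeated. The mean of detected probes also repeated it for the 5 members with 1 detected probe. Without background correction the medians were 1.17 for ΔCdk Rb-HA against parental, 1.05 for WT Rb-HA against Rb-deleted and 1.53 for ΔCdk Rb-HA against Rb-deleted, and with an offset of 50 they were 1.14, 1.01 and 1.48. The count of members lower by more than 1.6-fold in Rb-deleted against parental was 0 with an offset of 50, 2 with median scaling, 0 without probes shared with another gene, 2 at 1.5-fold and 0 at 2-fold. For WT Rb-HA against parental the count was 5 at 1.5-fold and 0 at 2-fold, and for ΔCdk Rb-HA against WT Rb-HA it was 1 at 2-fold. The median of ΔCdk Rb-HA against WT Rb-HA was 0.47 with detection p below 0.05, 0.65 with detection on all 4 arrays, 0.47 with no filter, 0.65 with the mean of detected probes and 0.65 without Hist1h4d. WT Rb-HA against Rb-deleted was 1.05 with no filter and 1.05 without shared probes, and ΔCdk Rb-HA against Rb-deleted was 1.79 with the mean of probes. The cause of these shifts was not tested, beyond the shrinkage that a larger offset brings by its construction. No paired analysis was possible because each group was 1 array, and for the same reason no replicate could be left out. Dim probes limit Hist1h4b, Hist1h4c and Hist1h4d.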

Other observations

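LOC100041230, annotated on the array as similar to histone H4 and not a member by symbol, had the pattern closest to the H4 medians of all analysed genes outside the members, with a root mean square difference of 0.0972 over its 3 log2 ratios to parental. Its intensity was 119 on the parental array, 88.5 on Rb-deleted, 188 on WT Rb-HA and 258 on ΔCdk Rb-HA, and its log2 ratios to parental were -0.52, 0.79 and 1.34. Its probe matched the Hist1h4m probe at base 16 at 49 of 50 bases, so both may read the same transcripts.

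Among histone genes of other families Hist2h2be (0.197) and Hist1h2bn (0.228) of H2B, and Hist1h3f (0.269) and Hist1h3a (0.279) of H3, came nearest by that measure. The next genes outside the histone lists follow. Lce1f, of the skin's cornified envelope, differed by 0.192 and measured 70.1, 58.8, 83.7 and 141 in the same order of arrays. The probe of 6530402F18Rik differed by 0.284 at intensities of 37.0 to 73.9. S100a8, a calcium-binding protein of myeloid cells, differed by 0.298 and measured 150.1, 128, 165 and 311. Fabp3, a fatty acid carrier of muscle and heart, differed by 0.31 and measured 258, 225, 304 and 454.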
